A study of Macaca mulatta with 48 samples.

Results

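Differentiating spermatogonia are the germ cells that have left the stem cell pool, begun a run of mitotic divisions and not yet entered meiosis. The step is marked by KIT, the receptor for stem cell factor, and is driven by retinoic acid, which also induces STRA8, a gene needed for meiotic entry. SOHLH1 and SOHLH2 are germ cell transcription factors of the helix-loop-helix family that act upstream of KIT, and MAGEA4 is a cancer-testis antigen of spermatogonia. The rhesus macaque breeds by season, and its testis lowers and raises sperm output over the year.

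To follow this stage, cells were selected by a gene rule from testis single-cell RNA sequencing of 6 male rhesus monkeys without treatment, 2 prepubertal, 2 adult and 2 aged. Each animal gave 1 testis in the non-breeding season (August) and the other in the breeding season (December), so that season cannot be told apart from the order of removal. The tissue was digested with collagenase, and each of the 12 libraries is 1 testis. The sample labels did not tie a matrix to a group, and the age, season and animal of each matrix were read from the study's library sheet, whose name for the youngest group, puberty, differs from the label, prepuberty. A cell was selected when it had at least 1 unique molecular identifier (UMI, 1 counted transcript) in at least 2 of KIT, STRA8, SOHLH1, SOHLH2, DMRT1 and MAGEA4, UMIs in at most 1 of the undifferentiated genes PIWIL4, UTF1, NANOS2, NANOS3, EGR4 and FGFR3, and 0 UMIs of SOX9 (Sertoli cells), CYP17A1 (Leydig cells) and AURKA (late spermatocytes). PRM1, PRM2 and TNP1, which package sperm DNA, had to hold under 5% of its UMIs. The rule took 441 of the 112150 cells that passed the quality filter. These values chose the cells, so the levels of these genes in them are a description.

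The libraries held 23072680 to 43405583 UMIs, except that of adult animal 2 in the breeding season, which held 959819 UMIs in 333 barcodes, of which 117 passed the filter. No cell of that library was selected, so every value below from adult animal 2 comes from the non-breeding season. The same barcode occurred in more than 1 library for 1602 barcodes, among them 10 of the selected cells. In the 11 libraries with selected cells, the median depth of these cells was 2130 to 9523 UMIs.

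Most of the selected cells carried SOHLH2 among their markers. SOHLH1 with SOHLH2 was the most frequent pair, in 151 cells (34.24%), followed by KIT with SOHLH2 in 77, KIT with SOHLH1 in 59, all 3 in 48 and STRA8 with SOHLH2 in 32. Only 10 cells were taken on KIT and STRA8 alone. DMRT1 had no named feature and could not be counted. The cells lay close to the limits of the rule: 362 had exactly 2 markers, 77 had 3, 1 had 4 and 1 had 5, while 9222 cells that met the other conditions had exactly 1. A UMI of 1 undifferentiated gene was seen in 140 selected cells, and 71 cells stayed outside because they had 2. AURKA kept out 187 cells, SOX9 110 and CYP17A1 10. The protamine and transition protein share was between 4% and 5% in 6 selected cells and between 5% and 6% in 4 cells just outside.

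KIT (chr5:78894911-78984337, minus strand, Mmul_10) had a UMI in 47.85% of the selected cells, against 4.71% of 680 undifferentiated spermatogonia (at least 2 of the 6 undifferentiated genes), 3.62% of 967 early spermatocytes (at least 2 of SPO11, PRDM9, MEIOB and ZCWPW1) and 0.70% of all other cells. Of 1558 endothelial cells 5.26% had it, but the share was 18.18%, 15.74%, 7.14% and 16.95% in those of the 4 prepubertal libraries. The rule took 2, 1, 1 and 2 endothelial cells of these libraries. It also took 3 of adult animal 2 (non-breeding) and 1 of aged animal 1 (breeding), and 1 myeloid cell of each aged animal (non-breeding). Prepubertal animal 1 in the non-breeding season had KIT in 33.33% of its 27 selected cells. STRA8 (chr3:161665840-161691514, plus strand) was seen in 18.37% of the selected cells, 0.88% of undifferentiated spermatogonia, 1.86% of early spermatocytes and 0.13% of other cells. It was seen in 0 of 423 myeloid cells, a type that should lack it. SOHLH1 (chr15:2581292-2587443, plus strand) reached 67.57% of the selected cells but also 39.85% of undifferentiated spermatogonia, and was seen in 6.72% of early spermatocytes. MAGEA4 (chrX:147924260-147929876, plus strand) was rare everywhere, with 7.03% of the selected cells and 0.11% of the others. None of these genes overlapped another gene of the RefSeq annotation. Undifferentiated spermatogonia and early spermatocytes had the same limits on SOX9, CYP17A1, AURKA, PRM1, PRM2 and TNP1. Cells taken by either spermatogonial rule were left out of the early spermatocytes. The low shares of the rule's markers in that set are thus partly set by its choice.

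SOHLH2 (chr17:15077316-15120466, minus strand) was the least specific marker of the rule. The matrices give this feature without a symbol, and it was named by its identifier. It had a UMI in 77.78% of the selected cells, but also in 16.31% of myeloid cells, 12.26% of endothelial cells and 19.3% of all other cells, so a share of its UMIs in the selected cells is at the level seen in cells that should lack the gene. Pooled over libraries its level was 245 CPM (counts of the gene scaled to the total UMIs of the cells) in the selected cells and 94.1 CPM in the others. Without SOHLH2 as a marker, 170 of the 441 cells met the rule.

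**Figure D1:**
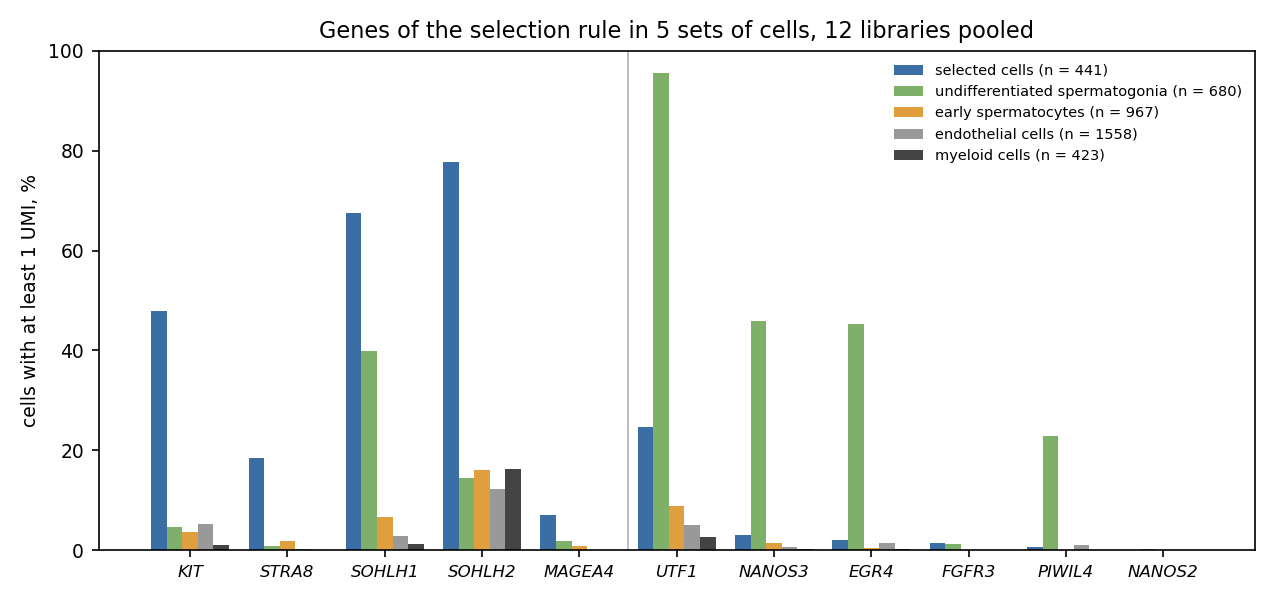
Share of cells with at least 1 UMI (y axis, %) for genes of the selection rule in the selected cells, undifferentiated spermatogonia, early spermatocytes, endothelial cells and myeloid cells, 12 libraries pooled. KIT and STRA8 have their highest share in the selected cells among the sets drawn, and SOHLH2 has a UMI in 12.26% or more of every set.

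The undifferentiated genes were low in the selected cells, partly by the rule. UTF1 was seen in 24.72% of them and in 95.59% of the undifferentiated spermatogonia, NANOS3 in 2.95% and 45.88%, EGR4 in 2.04% and 45.29%, and PIWIL4 in 0.68% and 22.79%. FGFR3 was at 1.36% and 1.18%, and NANOS2 had 0 UMIs in 441 cells.

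Genes outside the rule were compared with the stages before and after, as a description. This was done in the 4 libraries with at least 20 selected cells (prepubertal animal 1, adult animals 1 and 2 and aged animal 2, each from the non-breeding season) by the log2 ratio of CPM with a pseudocount of 10 CPM. Against all other cells, 37.6% of 5842 genes were higher in each of the 4 libraries and 14.7% were lower. The highest median ratios were those of GAGE10 (3.34) and GCNA (3.29), both expressed in germ cells, then SOHLH1 and KIT from the rule, the chromatin protein HMGA1 (2.88), the transketolase-like TKTL1 (2.85), the X-linked homeobox gene ESX1 (2.79) and MKI67 (2.71), which marks dividing cells. TKTL1 was at 549 to 1082 CPM in the selected cells. The germ cell CTCF paralog CTCFL (2.65), the lipid droplet gene PLIN2 (2.68), the G1 cyclin CCND1 (2.62) and the PAGE and PRAME family genes PAGE2B (2.66), PAGE1 (2.58) and PRAME (2.51) followed. GAGE, PAGE and PRAME genes have near-identical copies, and reads that match several of them were not counted, so their levels are uncertain.

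Against undifferentiated spermatogonia, 21.2% of 5789 genes were higher in each of the 4 libraries and 21.7% were lower. CDKN2D, an inhibitor of cell cycle kinases, was the highest, with a median ratio of 2.79 (1.46 to 2.85 over the libraries). The testis serine proteases PRSS21 (2.62) and PRSS50 (2.28), GCNA (2.42), the mitotic kinase PLK1 (2.22) and MEIOC, which is needed to enter the meiotic programme (2.28, range 2.13 to 2.40), were also higher in each library. Lower were L1TD1, an RNA-binding protein of pluripotent cells (-2.23), the transcription cofactor EYA2 (-2.12), the ERBB4 ligand NRG3 (-2.11), CRYM (-2.08), the calcium channel RYR3 (-2.02) and the homeobox gene SIX3 (-1.97). NANOS3 (-3.57), PIWIL4 (-2.86), EGR4 (-2.66) and UTF1 (-2.18) defined both sets of cells.

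Gene lists were read in the same way. Of 33 proliferation genes, 26 were higher than in undifferentiated spermatogonia in each of the 4 libraries and 0 were lower, with a median ratio of 1.07 beside 0.05 over all genes. Their summed level was 3333 to 5351 CPM in the selected cells and 1552 to 1906 CPM in the undifferentiated cells, and these ranges did not overlap. Markers of later germ cells moved with this comparison. Of 23 spermatid markers 9 were higher and 0 lower (median 0.78), the 13 late spermatocyte markers had a median of 0.51, and both sums were higher in each of the 4 libraries. Without the 3 clusters led by late germ cell genes (described below), 31 of the 33 proliferation genes were higher and 0 lower (median 1.24). Over all genes 25.2% were then higher and 19.5% lower (median 0.06). Of the spermatid markers 0 were then higher and 4 lower (median -0.66), and the late spermatocyte markers had a median of -0.38. The clusters were left out by their share of these same late markers, so this fall was set in advance. The undifferentiated spermatogonia were not reduced in this way, so the 2 sides are not alike. Of 19 genes of the differentiating list, 8 were higher and 2 lower (median 0.59), and of 18 genes of the undifferentiated list 0 were higher and 12 lower (median -0.74). Most of the 21 genes of the retinoic acid list (receptors, binding proteins and enzymes) had too few UMIs in the selected cells to be compared, and 4 of them passed the filter on low counts in the age comparison below. The genes of KIT, PI3K and mTOR signalling were 4 higher and 5 lower of 29 (median -0.11).

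Against early spermatocytes, 20.4% of 5735 genes were higher in each library and 25.3% were lower. KIT (2.45) and SOHLH1 (2.39) from the rule led, followed by the glutathione reductase GSR (1.65), BEND4 (1.5) and the X-linked homeobox genes RHOXF2 (1.40) and RHOXF1 (1.34). No early spermatocyte could have 2 or more markers of the rule, so the choice itself lowered KIT and SOHLH1 there. The lower genes included those of meiotic chromosomes: the synaptonemal complex genes SYCP2 (-2.97) and SYCP1 (-2.56), the crossover factor SHOC1 (-2.97), the meiotic cohesin RAD21L1 (-2.44) and TEX101, a germ cell surface protein (-3.12). Of 36 genes of meiotic entry and the chromosome axis, 30 were lower than in early spermatocytes in each library and 2 were higher, with a median of -1.34 beside -0.02 over all genes. Their sum was 2357 to 3659 CPM in the selected cells and 8144 to 9110 CPM in the early spermatocytes. The early spermatocytes were themselves chosen on 4 meiotic genes, SPO11, PRDM9, MEIOB and ZCWPW1. These are among the 36 genes and in their sum, so the choice itself raised them in the early spermatocytes. Against the undifferentiated cells 14 of the meiotic genes were higher and 1 lower (median 0.52). Of the 33 proliferation genes 9 were higher than in early spermatocytes and 6 lower (median 0.04), and their sum was higher in 2 of the 4 libraries. Without the clusters led by late germ cell genes 12 were higher and 6 lower (median 0.18). Their sum was then higher in each of the 4 libraries, at 4175 to 5482 CPM against 3986 to 4229 CPM. In the same reduced set 31 of the meiotic genes were lower and 1 higher (median -1.31). Over all genes 26.6% were then higher and 24.8% lower (median 0.01). The early spermatocytes were not reduced in this way, so the 2 sides are not alike.

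**Figure D2:**
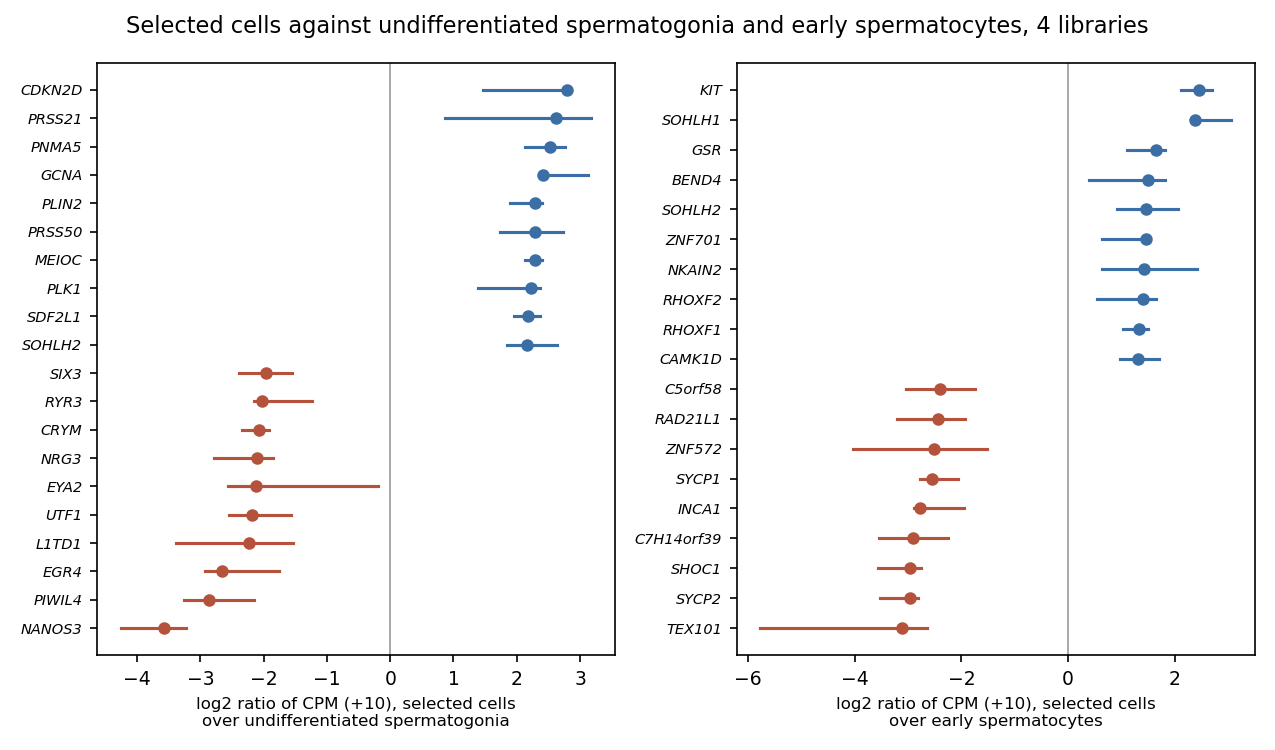
Log2 ratio of CPM (x axis) in the selected cells to that in undifferentiated spermatogonia and in early spermatocytes, for the leading genes in each direction, with the median (point) and the range (line) over the 4 libraries with at least 20 selected cells. MEIOC lies between 2.13 and 2.40 above the undifferentiated cells, and SYCP2 has ratios of -3.53 to -2.81 to the early spermatocytes.

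The selected cells were not uniform. Clustering gave 10 clusters, numbered by size, whose genes are a description because the same cells formed them. Clusters 1 (85 cells) and 2 (59 cells) were led by genes such as CTCFL, PLIN2 and PAGE2B and by DPEP3, LY6K and CCND1. STRA8 was seen in 34.12% and 32.2% of their cells and MKI67 in 42.35% and 52.54%. Cluster 1 came to 80% from adult animal 2 and cluster 2 to 94.92% from adult animal 1, both in the non-breeding season. In the same season aged animal 2 gave 16 of its 55 cells to cluster 1, and prepubertal animal 1 gave 3 cells to cluster 2. Adult animal 1 gave 0 cells to cluster 1 and adult animal 2 gave 0 to cluster 2. A difference between these 2 clusters thus cannot be told apart from one between the adult animals.

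Cluster 6 (42 cells) had the meiotic genes HORMAD1, SYCP3 and TEX101 among its leading genes. It had STRA8 in 45.24% of its cells, the highest share of the 10 clusters, and SYCP3 in 83.33%. Of its cells 78.57% came from adult animal 1 in the non-breeding season and 2 from adult animal 2. AMH, a Sertoli cell hormone, was seen in 47.62% of the same cells and VIM, a gene of somatic cells, in 64.29%, and Sertoli markers held 0.305% of their UMIs, the highest share of the 10 clusters. Clusters 8 (35 cells) and 9 (19 cells) held cycling cells, with MKI67 in 85.71% and 94.74%. CLSPN and ASPM led the first, and histone genes such as H4C3 and H1-4 led the second, in which KIT was seen in 89.47% of cells and STRA8 in 0 of 19. Adult animal 1 in the non-breeding season gave 74.29% and 78.95% of these cells, and adult animal 2 gave 1 cell to each. To clusters 6, 8 and 9 adult animal 1 gave 33, 26 and 15 of its 153 non-breeding cells. Prepubertal animal 1 gave 7, 6 and 2 of 27 in that season, and aged animal 2 gave 0, 2 and 1 of 55. These clusters thus occurred in more than 1 animal, but adult animal 2 had few of their cells.

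Clusters 3 (54 cells) and 5 (44 cells) had low shares of MKI67. Cluster 3 was led by genes including ERBB4, cluster 5 by genes including UTF1 and NRG3. SOHLH1 was seen in 88.89% and 90.91% of their cells, MKI67 in 7.41% and 11.36%, and STRA8 in 12.96% and 2.27%. AMH and FOS were also among the 10 leading genes of cluster 3, in which AMH was seen in 37.04% of cells and VIM in 50%. Sertoli markers held 0.256% of its UMIs. The undifferentiated list held 0.204% of the UMIs of cluster 3 and 0.138% of those of cluster 5, the highest shares of the 10 clusters. ID4, a gene of that list, was in 51.85% and 29.55% of their cells, also the highest. By these genes clusters 3 and 5 were the closest of the 10 to undifferentiated spermatogonia. Cluster 3 held 6 of 27 non-breeding and 3 of 4 breeding cells of prepubertal animal 1, and all cells of prepubertal animal 2.

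Clusters 4 (48 cells), 7 (39 cells) and 10 (16 cells) went against the label. Their leading genes were those of later germ cells: LDHC (95.83% of cells), CETN1 and ROPN1L in cluster 4, PRM1, TNP2 (94.87%) and TNP1 in cluster 7, and RNF151 and TEX43 in cluster 10. Late germ cell genes held over 1% of the UMIs of each of these 3 clusters, which together had 103 cells (23.36%) and are called late-led here. SOHLH2 was seen in 93.75%, 89.74% and 100% of them. The doublet score marked 45 of the 441 selected cells, and 23 of these were in cluster 4. The late-led cells were 0 of the 43 prepubertal cells. In the non-breeding season they were 3 of 153 cells in adult animal 1, 46 of 147 in adult animal 2, 4 of 4 in aged animal 1 and 18 of 55 in aged animal 2. In the breeding season they were 13 of 15, 15 of 19 and 4 of 5 in adult animal 1, aged animal 1 and aged animal 2. PRM1, PRM2 and TNP1 held 0.053% (adult animal 1, non-breeding) to 2.45% (aged animal 1, non-breeding) of the UMIs of the selected cells in the adult and aged libraries, and 0.212% and 2.55% of those of endothelial cells in the same libraries. The rule capped this share in each selected cell and not in the endothelial cells, which should lack these transcripts, so the values are set side by side without a comparison. The summed late spermatocyte markers of adult animal 1 were at 3332 CPM in the selected and 1518 CPM in the endothelial cells of the breeding season, and at 949.5 and 2248 CPM in those of the non-breeding season. The part of free RNA and of doublets in the late-led clusters was not tested.

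**Figure D3:**
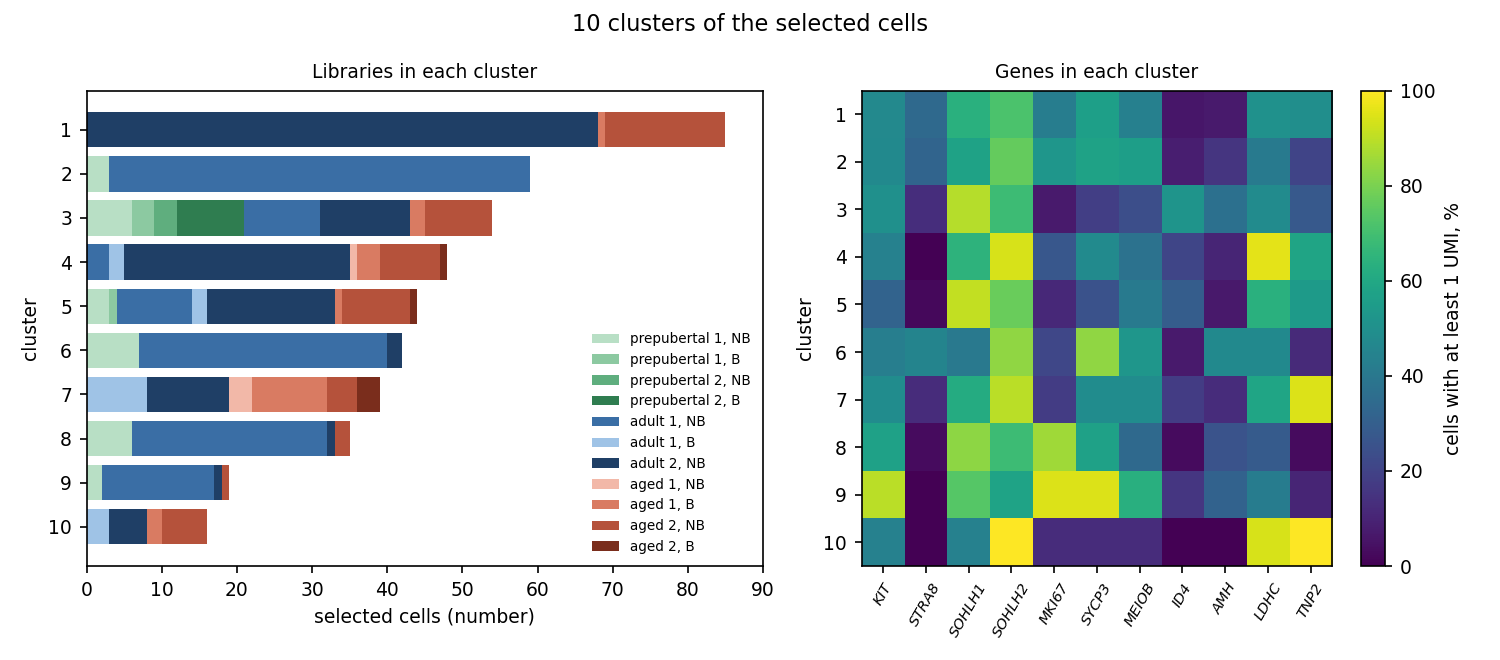
Cells per library in each of the 10 clusters of the 441 selected cells (left, number of cells) and the share of cells of each cluster with a UMI of selected genes (right, %). Cluster 1 comes mostly from adult animal 2 and clusters 2, 6, 8 and 9 mostly from adult animal 1, and TNP2 is in 94.87% and 100% of the cells of clusters 7 and 10.

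To ask whether the stage varied by season, its share of the cells was compared within each animal. In adult animal 1 the selected cells were 153 of 9239 (1.656%, 95% exact interval 1.41 to 1.94%) in the non-breeding season and 15 of 9383 (0.160%, 0.0895 to 0.264%) in the breeding season. In adult animal 2 they were 147 of 10298 (1.427%, 1.21 to 1.68%) and 0 of 117 (95% exact interval up to 3.104%; 3 counts of the total are 2.564%). The adult non-breeding libraries gave the most selected cells of the 12, and the shallow breeding library of adult animal 2 cannot show a difference. Intervals cover counting error only.

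The other animals went both ways. Aged animal 2 had 55 of 13128 (0.419%, 0.316 to 0.545%) in the non-breeding and 5 of 10787 (0.0464%, 0.0151 to 0.108%) in the breeding season, whereas aged animal 1 had 4 of 12869 (0.0311%, 0.00847 to 0.0796%) and 19 of 7411 (0.256%, 0.154 to 0.400%). Prepubertal animal 1 had 27 of 10467 (0.258%, 0.170 to 0.375%) and 4 of 7210 (0.0555%, 0.0151 to 0.142%). Prepubertal animal 2 had 3 of 11338 (0.0265%, 0.00546 to 0.0773%) and 9 of 9903 (0.0909%, 0.0416 to 0.173%), and its intervals overlap.

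The mean log2 difference in share over the 6 animals, breeding minus non-breeding, was -0.95 ± 2.7 (SD, n = 6, exact sign-flip permutation test over animals, two-sided, p = 0.375, the smallest possible being 0.03125). This value counts the 0 cells of adult animal 2 as 0.5, and the sign of that animal's own difference rests on this. In the other 5 animals the breeding season share was lower in 3 and higher in 2, with a mean of -0.79 ± 2.99 (SD, n = 5, the same exact test, p = 0.5, the smallest possible being 0.0625). The difference did not exceed the spread between animals. In the 5 animals it was -0.96 without SOHLH2 as a marker, -1.56 without the late-led clusters, -0.81 with germ cells as the denominator and -0.49 after thinning each cell to 1500 UMIs, each time with 3 animals lower and 2 higher. Germ cells were here the cells with UMIs in at least 2 of DDX4, DAZL, MAEL and TDRD1, which a selected cell did not need to have. With adult animal 2 included the thinned difference was -0.08. In a single-cell suspension a share also moves with the yield of all other cells, which was not tested.

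Without the late-led clusters, adult animal 1 kept 150 cells (1.624%) in the non-breeding and 2 cells (0.0213%, 0.00258 to 0.0770%) in the breeding season. Aged animal 1 kept 0 of 12869 cells in the non-breeding season, with an exact interval up to 0.0287% (3 counts of the total are 0.0233%), and 4 (0.0540%) in the breeding season, and aged animal 2 kept 37 (0.282%) and 1 (0.00927%). In adult animal 2 the share without them was 0.981% in the non-breeding season.

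**Figure D4:**
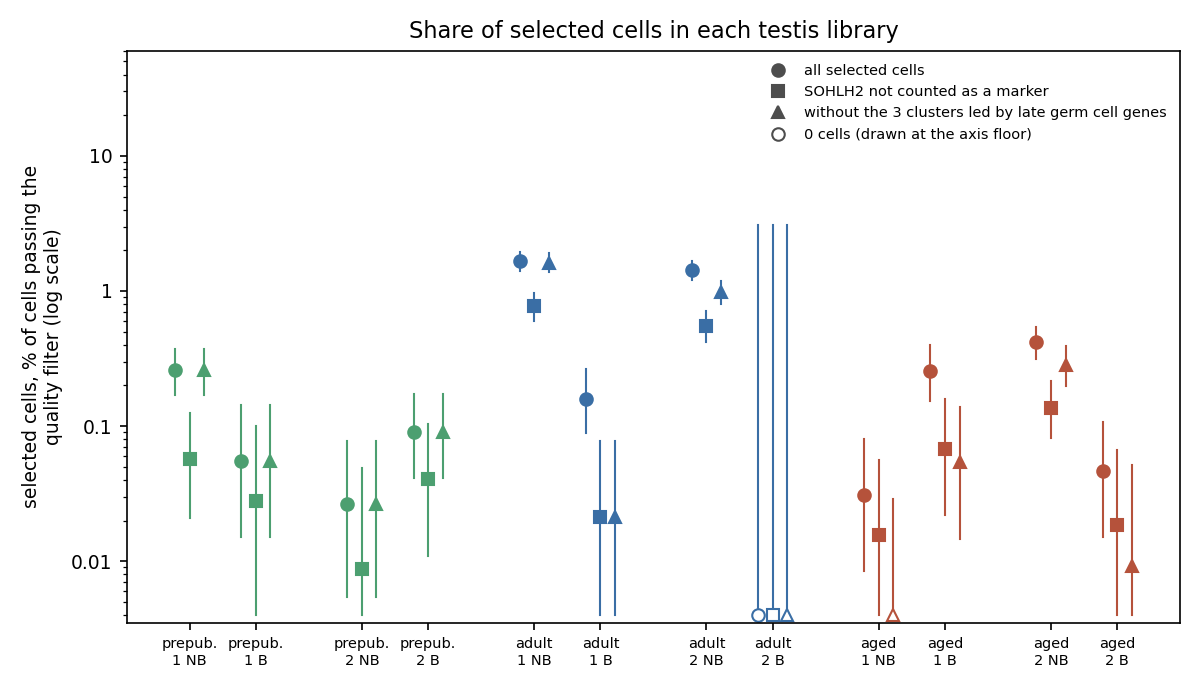
Selected cells as a share of the cells that passed the quality filter (y axis, %, log scale) in each of the 12 libraries (NB, non-breeding; B, breeding), for all selected cells, without SOHLH2 as a marker and without the 3 late-led clusters; bars are 95% exact intervals for counting error. The non-breeding libraries of the adult animals are the highest, at 1.656% and 1.427%, and the breeding library of adult animal 2 has a wide interval because it holds 117 cells.

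Pooled over animals, the few cells of the breeding season lay in other clusters than most of those of the non-breeding season. Clusters 1, 2, 6, 8 and 9, which carry STRA8, meiotic or cell cycle genes, held 239 of the 389 non-breeding cells and 1 of the 52 breeding cells. Within animals this was not so throughout. Aged animal 1 had most of its cells in the late-led clusters in both seasons, and prepubertal animal 2 had all 3 and all 9 in cluster 3. Over all animals MKI67 was seen in 38.82% and 7.69% of the cells of the non-breeding and breeding seasons, TOP2A (a topoisomerase of dividing cells) in 60.93% and 26.92%, STRA8 in 19.79% and 7.69%, and the synaptonemal complex gene SYCP3 in 52.96% and 26.92%. TNP2, a spermatid transition protein, went the other way, with 37.28% and 71.15%. These shares rest on different animals and depths in the seasons, and no test was made over cells.

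Adult animal 1 allows the seasons to be set side by side within an animal. MKI67 was seen in 78 of 153 cells in the non-breeding season (255 CPM, 95% exact Poisson interval 220 to 292) and in 1 of 15 in the breeding season (22.8 CPM, 0.578 to 127). TOP2A was at 566 CPM (515 to 622) and 91.3 CPM (24.9 to 234). STRA8 was at 57.3 CPM (41.8 to 76.6) and at 0 UMIs in 15 cells, which allows up to 68.5 CPM, so that a difference was not detectable at this depth. SYCP3 was at 307 CPM (269 to 348) and 114 CPM (37.1 to 266), and TKTL1 at 1080 CPM (1010 to 1160) and 593 CPM (388 to 869), in each case with intervals that did not overlap. These intervals cover the counting of UMIs in 1 library per season, and not the spread between cells or testes. The breeding values rest on 1 UMI of MKI67, 4 of TOP2A, 5 of SYCP3 and 26 of TKTL1.

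KIT went the other way in adult animal 1, with 123 CPM (100 to 151) and 205 CPM (93.9 to 390), and its intervals overlapped. TNP2 was seen in 15.69% of the non-breeding and 100% of the breeding cells of this animal, and the median depth was 4611 and 2130 UMIs. After thinning each cell to 1500 UMIs, MKI67 was seen in 25.33% of 150 cells and 0 of 12, STRA8 in 10.67% and 0 of 12, TOP2A in 51.33% and 16.67%, and KIT in 17.33% and 50%. SYCP3, which was in 67.97% and 20% of the cells before thinning, was then in 37.33% and 25%. With 13 of the 15 breeding cells in the late-led clusters, a loss of dividing cells and a selection of other cells cannot be told apart here.

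In aged animal 1 the breeding season gave more selected cells. MKI67 was seen in 0 of its 4 cells of the non-breeding season and in 15.79% of its 19 cells of the breeding season, at 166 CPM (79.6 to 305), and TOP2A was at 249 CPM. Aged animal 2 in the non-breeding season had MKI67 in 32.73% of 55 cells, at 164 CPM, and STRA8 in 7.27%, at 18.8 CPM, and TOP2A was at 235 CPM. In its breeding season MKI67 and STRA8 were seen in 0 of 5 cells, and TOP2A was at 73.8 CPM (1.87 to 411), from 1 UMI.

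A test of genes by season was limited by these cell numbers. At the minimum of 20 cells per library no breeding library remained. With 10 cells, 6 libraries could be fitted, and edgeR called 0 of 7377 genes (0%) in adult animals, in aged animals, in all ages and for the difference between the adult and the aged season change. At an unadjusted p under 0.05 there were 564, 234, 258 and 397 genes. These fits had 1 breeding library per age group, and no prepubertal comparison could be fitted. Except in the fit over all ages, only the adult non-breeding group held 2 libraries, so the spread was taken from these alone. With so few libraries, a count of 0 cannot show that genes did not differ by season. The aged comparison set aged animal 1 (19 cells, breeding) against aged animal 2 (55 cells, non-breeding). In it, and in the adult minus aged difference built on it, season cannot be told apart from animal. The fit over all ages holds the same aged pair, so animal is mixed into its season difference too. None of these fits took the animal as a block.

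By age, with both testes of an animal summed, the selected cells were 0.175% and 0.0565% of the cells in the prepubertal animals, 0.902% and 1.41% in the adult animals and 0.113% and 0.251% in the aged animals. The 2 adult animals were the highest, and the aged animals overlapped the prepubertal ones. The adult and aged animals together were 4.38-fold above the prepubertal animals (log2 2.13, exact permutation test over 6 animals, two-sided, p = 0.2, smallest possible 0.0667). This log2 difference was 1.16 without the late-led clusters, which hold 0 prepubertal cells, and 0.73 with a spermatid share under 0.5%. It depends on the denominator. Relative to germ cells, the selected cells were 9.82%, 3.92%, 3.85% and 11.5% in the prepubertal libraries. They were 10.6% and 0.704% in adult animal 1 (non-breeding and breeding), 4.85% in adult animal 2 (non-breeding) and 0.237% to 1.75% in the aged libraries. By this measure the prepubertal libraries overlapped the older ones. The values 3.92% and 3.85% lay below both adult non-breeding values, and all 4 lay above the adult breeding and the aged values. This denominator did not hold all cells taken as germ cells. In prepubertal animal 2 (non-breeding) it held 78 cells, beside 122 undifferentiated spermatogonia by their own rule. No test by age was made. The aged animals were 6.69-fold below the adult animals (log2 -2.74, exact permutation test over 4 animals, p = 0.33, the smallest that 2 against 2 can give), with the aged below the adult animal in each of the pairs. The same difference was -3.99 without the late-led clusters. In the breeding season the share in adult animal 1, 0.160%, lay between those of the aged animals, 0.256% and 0.0464%, so that the gap between adult and aged animals was not seen in the breeding season, in which adult animal 2 gave no selected cell.

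Levels of genes were then compared between ages in the 5 animals with at least 20 selected cells (31 in prepubertal animal 1, 168 and 147 in the adult animals, 23 and 60 in the aged animals). Prepubertal animal 2, with 12 cells, was left out of the fit. edgeR called 0 of 7791 genes (0%) between aged and adult animals, with 627 at an unadjusted p under 0.05, and DESeq2 called 0. Between adult and prepubertal animals edgeR also called 0 genes (0%), with 732 at an unadjusted p under 0.05, while DESeq2 called 16, among them the late germ cell genes PRM1, CETN1 and SMCP, higher in the adult animals, and AMH, lower (named after their values were seen). Levels below are CPM per animal in the order prepubertal 1 and 2, adult 1 and 2, aged 1 and 2, and no gene named from these fits passed the test in edgeR. Prepubertal animal 2 had 62706 UMIs, so that its values of 16 CPM are 1 UMI each.

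Genes of the differentiating list had lower levels in the aged than in the adult animals, although none passed the test. TKTL1 was at 912, 287, 1056, 936, 458 and 556 CPM, so that both aged animals lay below both adults (log2 aged minus adult -0.94, SE 0.30, edgeR adjusted p = 0.57). HMGA1 was at 584, 223, 709, 581, 337 and 380 CPM (log2 -0.82), and ESX1 at 183, 31.9, 258, 142, 94.3 and 102 CPM (log2 -0.99). DPEP3, a testis dipeptidase, was at 203, 16, 441, 275, 269 and 190 CPM (log2 -0.66). In each of these, the aged animals did not overlap the adult ones. Season is mixed unevenly into these sums: 19 of the 23 cells of aged animal 1 came from the breeding season, against 15 of 168 and 0 of 147 in the adult animals, and TKTL1 was also lower in the breeding season within adult animal 1, as given above. In the non-breeding season alone TKTL1 was at 1080 and 936 CPM in the adult animals and at 549 CPM in aged animal 2, while aged animal 1 had 2 UMIs in 4 cells. Of the 11 genes of the list that were tested, 8 had both aged animals below both adults and 0 above, with a median of -0.94. Over all 7791 genes, both aged animals lay below both adults in 28.0% and above in 19.2%, and the median was -0.07. The spermatid markers had a median of 1.18 in the same comparison. Without the late-led clusters, in which 19 of its 23 cells lay, aged animal 1 kept 4 cells and left the fit. The median of the list was then -0.48. It compares aged animal 2 alone with the adults, as do all aged minus adult levels without these clusters.

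Among the genes of the rule, STRA8 was at 41.7, 16, 54.3, 51.7, 26.9 and 17.7 CPM, lower in both aged than in both adult animals. By share of cells, STRA8 was seen in 24.18% and 21.77% of the cells of the adult non-breeding libraries. It was in 7.27% of those of aged animal 2 in the same season and 10.53% of those of aged animal 1 in the breeding season. After thinning to 1500 UMIs these shares were 10.67%, 9.93%, 2.0% of 50 cells and 14.29% of 14 cells. Aged animal 2 thus stayed below the adults and aged animal 1 did not, on few cells and in another season. KIT was at 99.1, 95.7, 128, 93.9, 189 and 137 CPM, SOHLH1 at 141, 255, 178, 207, 242 and 256 CPM, and SOHLH2 at 167, 144, 213, 255, 350 and 388 CPM, each higher in both aged animals. After the same thinning KIT was seen in 17.33% and 20.57% of the cells of the adult non-breeding libraries. It was in 28% of those of aged animal 2 in that season and 14.29% of those of aged animal 1 in the breeding season. SOHLH1 was in 26%, 30.5%, 36% and 14.29% in the same order. By this measure KIT and SOHLH1 were above both adults only in aged animal 2, while SOHLH2 was so in both of these aged libraries. These genes chose the cells, and the values are a description. The median depth of the selected cells was 4611 and 4161 UMIs in the adult non-breeding libraries and 2352 and 3023 UMIs in the library of each aged animal with more selected cells. The thinned shares above keep the cells selected at full depth. When the rule was applied again to cells thinned to 1500 UMIs, aged animal 1 kept 2 non-breeding and 8 breeding cells and left the fit. Genes compared after this thinning thus set aged animal 2 alone against the adults.

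Proliferation and meiotic genes differed among themselves. TOP2A was at 428, 16, 541, 353, 202 and 225 CPM (log2 aged minus adult -1.03), the chromatin protein HMGB2 differed by -0.82, the replication clamp PCNA by -0.38 and the kinetochore gene CENPF by -0.13, the last with overlapping groups. Of 29 proliferation genes, 15 had both aged animals below both adults and 1 above, beside 28.0% below and 19.2% above over all genes. Their median was -0.42, and -0.17 without the late-led clusters, where aged animal 2 alone is compared with the adults. SMC1B, the meiotic cohesin subunit, was at 553, 112, 694, 392, 229 and 199 CPM (log2 -1.34, SE 0.39, edgeR adjusted p = 0.57). SYCP3 was at 240, 16, 297, 195, 148 and 88.3 CPM (log2 -1.13). MNS1, a gene of meiosis and sperm tails, went the other way, with 93.8, 31.9, 193, 416, 539 and 543 CPM (log2 0.85). Of 26 meiotic genes, 14 were lower in both aged animals and 2 higher, beside the same 28.0% and 19.2% over all genes. Their median was -0.37, and -0.62 without the late-led clusters, again with 1 aged animal.

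Over all genes 28.0% were lower in both aged animals and 19.2% higher. Of 21 genes of the KIT, PI3K and mTOR list, 9 were lower in both aged animals and 0 higher (median -0.28, and 0.20 without the late-led clusters). In this paragraph, values without these clusters compare aged animal 2 alone with the adults. GRB2, an adaptor of receptor kinases, was at log2 -1.09 and the mTOR activator RHEB at -0.87. Of 4 retinoic acid genes, 2 were lower and 0 higher (median -0.15, and 0.47 without the late-led clusters). RXRG, a retinoid receptor, was at 14.5, 55.8, 108 and 30.9 CPM in the adult and aged animals and had 0 UMIs among the 191808 and 62706 UMIs of the selected cells of the prepubertal animals. The undifferentiated list had 1 lower and 2 higher of 10 (median 0.01, and 0.82 without the late-led clusters), with MSL3 at 110, 175, 36.2, 51.7, 175 and 75.0 CPM, and ERBB4, the receptor for neuregulins, was at 256, 861, 86.8, 54.4, 135 and 35.3 CPM.

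**Figure D5:**
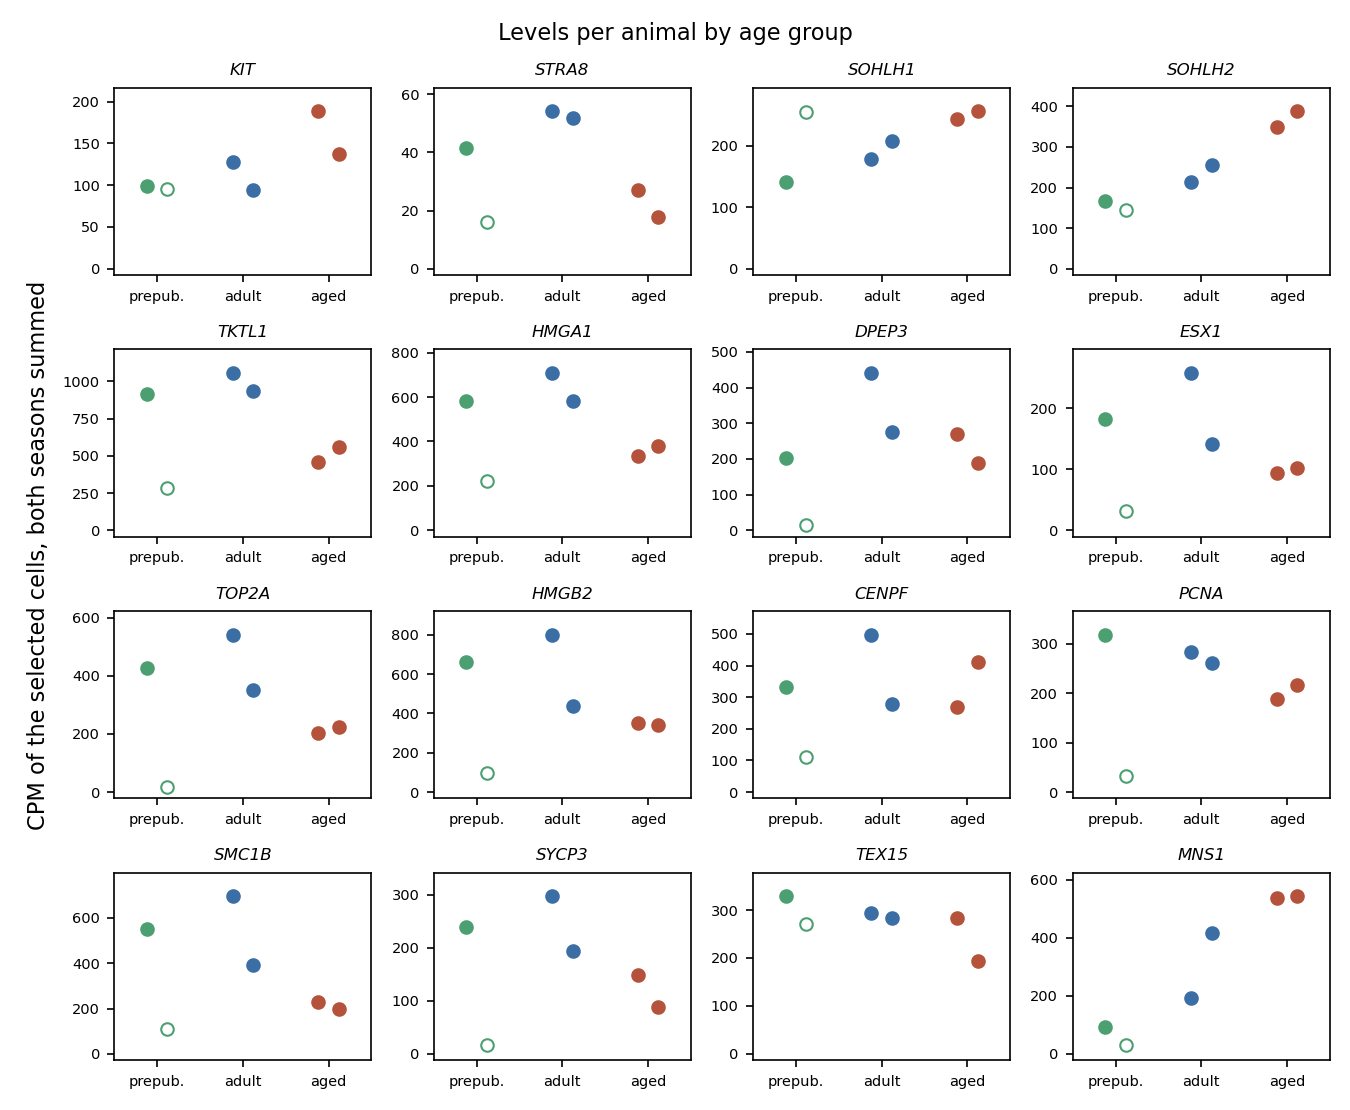
CPM in the selected cells (y axis, both seasons summed, a scale of its own for each gene) in each of the 6 animals, by age group; each point is 1 animal, and the open point is prepubertal animal 2. TKTL1 lies at 936 and 1056 CPM in the adult and at 458 and 556 CPM in the aged animals, and the open points, from 12 cells, were not in the test.

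Markers of other cell types were read in the same fits. With all selected cells, none of the spermatid, Sertoli and endothelial markers tested passed the test in edgeR. The fits without the late-led clusters, given further on, have 1 aged and 1 prepubertal animal and are read by their differences only. Over all genes 19.2% had both aged animals above both adults and 28.0% below. Of 22 spermatid markers tested, 18 had both aged animals above both adults and 0 below, with a median of 1.18. Of 11 Sertoli markers, 8 were lower in both aged animals (median -0.82), and of the 3 endothelial markers tested 1 was (median -1.26). Without the late-led clusters aged animal 1 had 4 cells and left the fit. With 1 aged animal, the median, aged minus adult, was then 1.20 for the spermatid, -3.56 for the Sertoli and -0.44 for the endothelial markers, beside -0.05 over all genes. The Sertoli marker CST9L differed by log2 -3.56 in this fit. Between adult and prepubertal animals the median was 3.89 for the 22 spermatid markers, -0.96 for the 11 Sertoli markers and -1.88 for the 3 endothelial markers tested, beside 0.12 over all genes, with 1 prepubertal animal. Without the late-led clusters these medians were 1.67, -0.82 and -1.99, beside 0.02 over all genes, still with 1 prepubertal animal. The Sertoli markers AMH and VIM then differed by log2 -3.25 and -1.46 and CST9L by 2.54 (named after their values were seen). AMH was seen in 77.78% of the 27 selected cells of prepubertal animal 1 in the non-breeding season, 19.61% and 12.24% of those of adult animals 1 and 2 and 1.82% of those of aged animal 2 in the same season. VWF, an endothelial gene, was seen in 51.85% of the same cells of prepubertal animal 1, 39.22% and 38.78% of those of the adult animals and 20% of those of aged animal 2. VWF does not stand for the endothelial list. In these cells of adult animals 1 and 2 and aged animal 2 it had 85, 92 and 21 UMIs. FLT1 had 19, 18 and 3, PECAM1 3, 1 and 0, EMCN 0, 5 and 0, and CDH5 0 in each. The sums that follow are thus mostly VWF in these 3 animals. The summed endothelial markers were at 298, 141, 162 and 113 CPM in these cells and at 3294, 2432, 1774 and 2573 CPM in the endothelial cells of the same libraries. The part of other cells' RNA in the age differences was not tested.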

How the data were processed

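The 12 matrices hold whole UMI counts per gene and barcode, deposited by the authors and made, per the submitters' processing notes, with Cell Ranger 9.0.0 on Mmul_10. Reads that map to several genes are not counted by this tool, which lowers genes with near-identical copies. The quality filter of the study was applied: a floor of 300 detected genes, a ceiling of 30000 UMIs, and a mitochondrial share (13 genes) no higher than 3%. No doublets were removed, but each cell received a Scrublet score (scanpy 1.11.5). The cells and gene lists were chosen with earlier results of these data known. SOHLH2, UTF1 and PRDM9 were named by identifier from a reference table, DMRT1 and DMC1 have no named feature, and 0 columns were left unused.

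Selected cells were clustered on 1500 variable genes (15 components, resolution 1). Their counts were summed per library or animal and tested with edgeR 4.0.16 in R 4.3.3 (quasi-likelihood, TMM, low counts filtered, Benjamini-Hochberg threshold 0.05, at least 20 cells, age groups in 1 fit). DESeq2 1.42.0 was an alternative. P-values measure the spread between animals, 2 per age at most. The season fits of genes by age group took this spread from the 2 adult non-breeding libraries only. On simulated data for the aged against adult comparison at a biological coefficient of variation of 0.296, 61.5% of 200 genes changed 4-fold and 99.5% of those changed 8-fold were recovered (7925 and 7983 genes). All genes had the same coefficient, and the changed ones were drawn only from genes with higher counts. Smaller changes and genes with few UMIs were thus not covered. Shares were tested by exact permutation over animals, the season test within animals, since each animal gave both testes according to the study's methods. Named were the rule's genes, list members with the lowest p or highest level, and the genes leading each stage comparison. Cluster genes, TNP2, MKI67 by season and AMH were named after their values were seen. Gene positions are those of RefSeq on Mmul_10. The season fits of genes used 10 cells where 20 were planned. A gene that led 1 stage comparison and 1 cluster is not reported here.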

Additional observations from a re-analysis of the deposited data

How the results depend on the processing

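Germ cells as the denominator were not run for the age differences, and with them the prepubertal libraries overlapped the older ones, as given above. The differences in share kept their sign under every alternative that was run. Their p-values bear little on stability, since that of aged against adult (smallest possible 0.33), that of adult and aged against prepubertal (0.0667) and that of season with 5 animals (0.0625) could not pass 0.05. The season difference (log2, breeding minus non-breeding) was -0.95 with the animal as replicate block (exact permutation p = 0.375), and without the replicate block the exact permutation p was 0.2963. Leaving out animals gave -1.75 to -0.46, thinning to 1500 UMIs -0.08 (-0.49 without adult animal 2, where 0 of 23 cells count as 0.5) and a spermatid share under 0.5% -2.37. Leaving out an animal gave 1.31 to 2.95 for adult and aged against prepubertal animals (0.73 with a spermatid share under 0.5%, 1.16 without the late-led clusters, 3.3 thinned) and -3.31 to -2.17 for aged against adult, where a spermatid share under 0.5% gave -5.04. Counts of genes called by age were unstable, and those given for adult minus prepubertal rest on 1 prepubertal animal. Against 0 for adult minus prepubertal, there was 1 with the size factors of DESeq2, 16 with DESeq2, 405 without the filter on low counts, 126 without scored doublets, 33 without the late-led clusters (2 higher, 31 lower, AMH among the lower) and 0 to 746 on leaving out 1 animal, the 746 without adult animal 1. Against 0 for aged minus adult, there were 26 without the filter, 194 without scored doublets, 16 after thinning, 3 without the late-led clusters and 0 to 10 on leaving out 1 animal, the 10 without adult animal 1. The cause was not tested. Leaving out SOHLH2 as a marker, the late-led clusters or the breeding libraries, and adult animal 2 together with another setting, was chosen after seeing the data. Not run, for too few cells, were adult minus prepubertal with 3 markers, thinned, without SOHLH2 or without prepubertal animal 1, aged minus adult with 3 markers, and, for genes by season, the block and all other alternatives.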
